A study of Homo sapiens with 12 samples.

Results

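The IκB family of NF-κB inhibitors and nuclear cofactors was followed at the transcript level in THP-1 macrophages with and without a mutation in NFKB1. The 6 genes were chosen by name, 3 for classical IκB proteins (NFKBIA, NFKBIB and NFKBIE, encoding IκBα, IκBβ and IκBε) and 3 for atypical ones (NFKBIZ, NFKBID and BCL3, encoding IκBζ, IκBNS and Bcl-3). All 6 were measured, out of 3281 genes that the authors listed as responding to lipopolysaccharide (LPS) in at least 1 genotype. THP-1, a line from a human monocytic leukaemia, becomes macrophage-like under phorbol ester (PMA). The 12 RNA-seq libraries fell into 4 groups of 3, namely S80A cells after 3 hr with LPS at 10 ng/ml, WT cells after the same treatment, S80A cells at 0 hr and WT cells at 0 hr. S80A cells carry NFKB1 with serine 80 of p50 replaced by alanine, which cannot be phosphorylated, and WT cells carry unmodified NFKB1. Every group first received 25 ng/ml PMA over 72 hr, followed by 4 days of rest. The labels do not say how the S80A cells were made or whether they are 1 clone, so a genotype difference cannot be told apart from a difference between the lines, and they do not say that replicates were separate cultures, so p-values reflect library-to-library spread alone, which may be technical. In bulk RNA, fewer cells of a type and less RNA per cell cannot be told apart.

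IκB proteins bind NF-κB dimers through ankyrin repeats. The classical members hold the dimers in the cytoplasm until the IκB kinase complex marks them for degradation, and NFKBIA is itself switched on by NF-κB, so that newly made IκBα returns the dimers to the cytoplasm and limits the response. The atypical members are mostly nuclear and are made or raised during the response, and they join p50, the subunit changed in S80A cells, at promoters, where IκBζ mainly assists transcription of a second wave of cytokine genes and IκBNS and Bcl-3 can repress or assist it.

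Values are read counts divided by a size factor per library (scaled reads). Reads on the 3281 genes ranged from 4661457 to 5789918 in S80A libraries at 3 hr, 3644991 to 4468968 in WT libraries at 3 hr, 2072956 to 2914087 in S80A libraries at 0 hr and 1924562 to 2176975 in WT libraries at 0 hr. Genes outside the 3281 are missing from these sums, which are therefore not library depths. The smallest count of any member in any library was 107 reads, for NFKBID in S80A replicate 3 at 0 hr. S80A replicate 1 lay nearer the WT libraries on the second principal component than the other S80A libraries, at 16.9 at 3 hr and 16.7 at 0 hr, against 41.3 and 46.7 at 3 hr and 32.7 and 39.0 at 0 hr for S80A replicates 2 and 3, with WT libraries from -40.4 to -25.0. Of 10 macrophage and monocyte markers, CD14, CD163 and MERTK were among the listed genes, summing to 2456 to 3018 scaled reads in S80A and 1782 to 2553 in WT libraries at 3 hr, and 5115 to 9884 in S80A and 4530.3 to 6675 in WT libraries at 0 hr. MERTK, a receptor for apoptotic cells, was higher in S80A cells at 3 hr (2.63 log2, limma adjusted p = 0.000785) and 0 hr (1.22 log2, 0.00814), and its LPS response differed by 1.41 log2 (0.0107). CD163, a scavenger receptor, differed the other way without passing, by -0.53 log2 at 3 hr (0.156) and -1.11 log2 at 0 hr (0.0509), and CD14, the LPS co-receptor, by 0.74 (0.0721) and 0.56 log2 (0.305). The part of these marker differences in the results was not tested. Of 4 markers each for T cells, B cells, epithelium and fibroblasts, CD79B was listed, at 8.39 to 45.8 scaled reads in S80A libraries and 4.70 to 41.0 in WT libraries. NFKB1 had 28402, 21622 and 19571.5 scaled reads in S80A libraries and 22659.9, 24064 and 23146 in WT libraries at 3 hr, and a point mutation leaves its read count unmarked, so this gives no check of the genotype.

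The regions before the transcription starts are shown for the members whose 250-base window held the NF-κB consensus decamer and no annotated exon. The decamer, GGGRNNYYCC (R is A or G, Y is C or T, N is any base), was searched on both strands, and its matches are in capitals. RefSeq windows (GRCh38.p14) were available for 5 of the 6 members, all but NFKBIE. Each sequence reads 5′ to 3′ on the strand of its gene and ends at the base before the start.
NFKBIA, chr14:35404750-35404999, minus strand: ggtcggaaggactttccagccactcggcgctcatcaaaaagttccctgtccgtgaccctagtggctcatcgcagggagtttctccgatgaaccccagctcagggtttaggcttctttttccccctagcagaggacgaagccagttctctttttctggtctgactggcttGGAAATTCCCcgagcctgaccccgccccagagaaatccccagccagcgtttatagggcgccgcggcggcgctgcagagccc
NFKBIZ, chr3:101827740-101827989, plus strand: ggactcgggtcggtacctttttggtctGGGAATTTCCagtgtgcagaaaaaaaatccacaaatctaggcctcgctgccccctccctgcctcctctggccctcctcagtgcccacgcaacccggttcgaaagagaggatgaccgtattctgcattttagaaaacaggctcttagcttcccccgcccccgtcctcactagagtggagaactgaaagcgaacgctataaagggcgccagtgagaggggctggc
NFKBID, chr19:35899744-35899993, minus strand: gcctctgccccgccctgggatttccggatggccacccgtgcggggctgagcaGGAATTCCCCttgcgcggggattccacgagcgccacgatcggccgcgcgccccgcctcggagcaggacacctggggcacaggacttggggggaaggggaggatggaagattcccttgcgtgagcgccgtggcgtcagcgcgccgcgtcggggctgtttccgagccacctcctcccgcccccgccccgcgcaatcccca
The match began 81 bases before the start in NFKBIA, 223 in NFKBIZ and 198 in NFKBID. Other starts of the same genes, whose windows overlap annotated exons, had GGGGTTTCCC at 239 bases (NFKBIZ), GGGGACTCCC at 92 bases (NFKBID) and, in NFKBIB, GGGAATTTCC and the overlapping GGAATTTCCC at 28 and 27 bases. The window of BCL3 held no match. In all, 6 of 9 windows of the members held a match, against 9.96% of 35116 windows in the RefSeq table and 13.5% of 3403 windows of listed genes. The 9 windows came from 5 genes, some with several starts, so they are not independent. A match describes the letters and does not show a bound site.

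LPS raised all 6 members in both genotypes by the authors' deposited tables (adjusted p under 0.01 and absolute log2 fold change over 1). Because members were taken from genes listed for this change, the count is a description. Of the 3281 listed genes, the authors called 46.2% as rising in S80A cells and 43.9% in WT cells, which is 8.67% and 8.24% of the 17486 genes that the authors' p-values and adjusted p-values imply were tested. The median log2 fold change of the members was 3.04 in S80A cells and 3.25 in WT cells, against 2.17 and 2.20 over all rising genes of each table. The sizes divided into a strong set, NFKBIA, NFKBIZ and BCL3, with log2 fold changes of 3.84 to 6.09 in S80A cells and 4.35 to 4.89 in WT cells, and a weaker set, NFKBIB, NFKBIE and NFKBID, with 1.31 to 2.24 in S80A cells and 1.81 to 2.15 in WT cells. Each set held classical and atypical members.

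**Figure D1:**
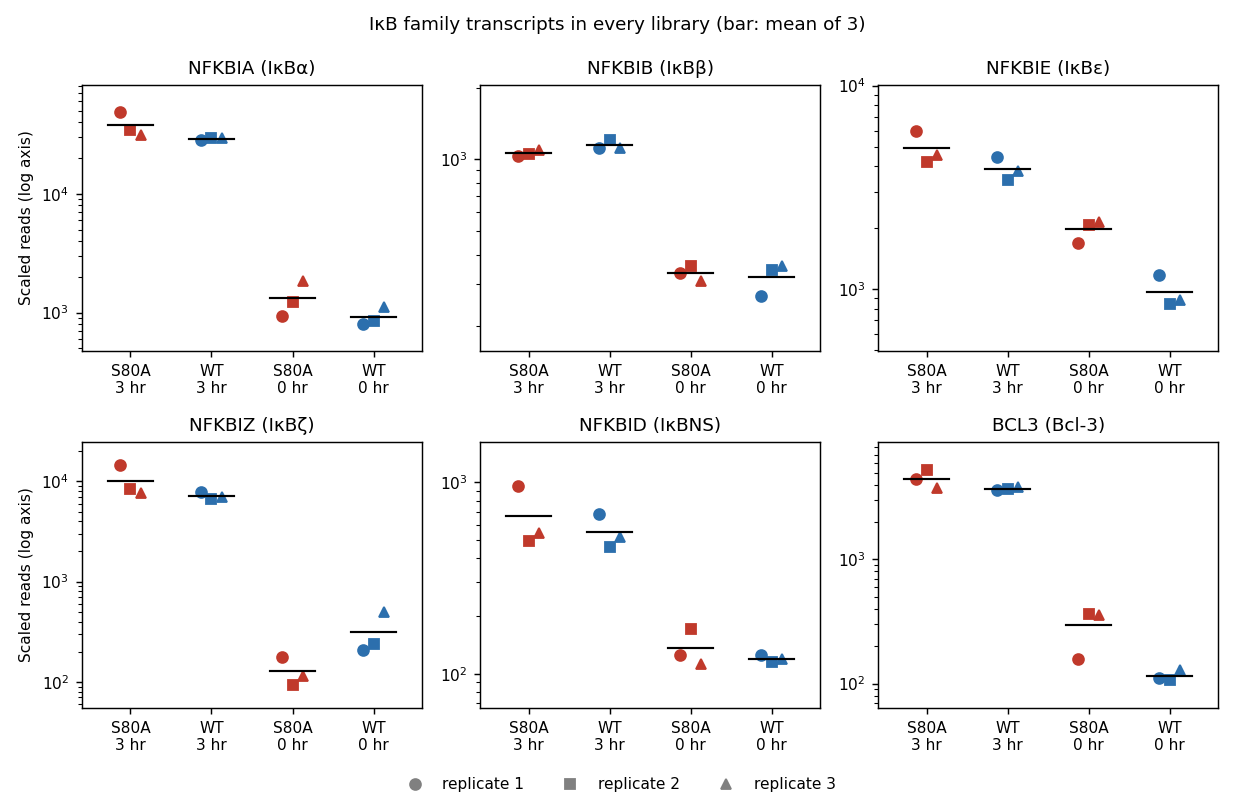
Scaled reads (log axis) of the 6 IκB genes in each of the 12 libraries, by group, with replicates as symbols and group means as bars. For every gene all libraries at 3 hr lie above all libraries at 0 hr of the same genotype, while at 0 hr the S80A points of NFKBIE and BCL3 lie above the WT points and those of NFKBIZ below them.

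Among the classical members, NFKBIA, the feedback inhibitor of the first NF-κB wave, lies on chromosome 14 from 35401511 to 35404749 (GRCh38, GENCODE 29). S80A libraries 1 to 3 had 48864, 34568 and 31310.3 scaled reads of NFKBIA at 3 hr and 943, 1217 and 1831 at 0 hr. WT libraries had 28219, 29267 and 29457 at 3 hr and 807, 846 and 1118 at 0 hr. All 3 S80A libraries were above all WT libraries at 3 hr, with S80A replicate 1 well above the rest, while the groups overlapped at 0 hr. Group means at 3 hr were 28.7 times those at 0 hr in S80A cells and 31.4 times in WT cells, and the gene ranked 143 of 1516 rising genes in the S80A table and 143 of 1441 in the WT table by authors' log2 fold change.

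NFKBIB, which encodes a classical inhibitor with slower turnover, spans bases 38899700 to 38908893 of chromosome 19, plus strand. It had 1034, 1057 and 1097 scaled reads in S80A libraries and 1112, 1211 and 1116 in WT libraries at 3 hr. At 0 hr it had 336, 357 and 311 in S80A libraries and 268, 345 and 357 in WT libraries. The 3 S80A values at 3 hr lay just below the 3 WT values, and those at 0 hr overlapped. Its annotation overlaps SIRT2 on the minus strand, and since the strand setting of the counting is not given in the sources used here, reads of the pair may be shared.

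NFKBIE, another cytoplasmic inhibitor that is resynthesised under NF-κB control, lies on chromosome 6 from 44258166 to 44265788. It had 5947, 4201 and 4575 scaled reads in S80A libraries and 4454, 3429.9 and 3783 in WT libraries at 3 hr. At 0 hr it had 1682, 2067 and 2144 in S80A libraries and 1173, 843 and 887 in WT libraries. Groups overlapped at 3 hr and were apart at 0 hr, where every S80A library was higher. The 3 hr mean was 2.50 times the 0 hr mean in S80A cells and 4.02 times in WT cells.

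Of the atypical members, NFKBIZ lies on chromosome 3 from 101827991 to 101861022. S80A libraries had 14626, 8307 and 7605 scaled reads of NFKBIZ at 3 hr and 176, 93.1 and 114 at 0 hr, and WT libraries had 7857, 6644 and 7024 at 3 hr and 210.4, 238 and 496 at 0 hr. At 0 hr all S80A libraries were lower than all WT libraries, with WT replicate 3 standing above the other WT libraries, and at 3 hr the groups overlapped. The 3 hr mean was 79.6 times the 0 hr mean in S80A cells and 22.8 times in WT cells. By authors' log2 fold change NFKBIZ ranked 68 of 1516 rising genes in the S80A table and 196 of 1441 in the WT table.

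BCL3, whose protein joins p50 and p52 homodimers, spans bases 44747705 to 44760044 of chromosome 19, plus strand. It had 4412, 5219.8 and 3769 scaled reads in S80A libraries and 3626, 3679 and 3824 in WT libraries at 3 hr. At 0 hr it had 157, 365 and 360.0 in S80A libraries and 111, 108 and 129 in WT libraries. All S80A libraries were higher at 0 hr, but S80A replicate 1 was much nearer the WT libraries than replicates 2 and 3, and at 3 hr the groups overlapped. The 3 hr mean was 15.2 times the 0 hr mean in S80A cells and 32.0 times in WT cells.

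NFKBID, the gene of IκBNS, spans bases 35887653 to 35902303 of chromosome 19, minus strand, and overlaps AD000864.1 on the same strand. It had 956, 496 and 544 scaled reads in S80A libraries and 680.1, 457 and 516 in WT libraries at 3 hr. At 0 hr it had 124, 171 and 112 in S80A libraries and 126, 115 and 119 in WT libraries. Groups overlapped at both times, and replicate 1 was the highest at 3 hr in both genotypes.

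Before LPS, NFKBIE was higher in S80A than in WT cells, the only member to pass the test at that time. The difference was 1.03 ± 0.18 log2 (SE; 95% interval 0.57 to 1.49; 1964 ± 247 scaled reads in S80A and 968 ± 179 in WT cells, SD, n = 3) with a limma adjusted p of 0.0138. That made 1 of 6 members, against 30.7% of the 3281 genes (20.1% higher and 10.6% lower). The call was lost, at adjusted p = 0.053, 0.0571 and 0.0546, without WT replicate 2, WT replicate 3 or S80A replicate 2 at 0 hr. These fits did not use the replicate number. With it added to the limma fit as a block, which pairs the groups at 0 hr, NFKBIE passed narrowly (adjusted p = 0.0478). Across the 16 alternatives of NFKBIE the adjusted p spanned 1.82e-05 to 0.0571. BCL3 and NFKBIZ missed the threshold at 0 hr with differences as large in size. BCL3 differed by 1.24 ± 0.36 log2 (SE; 95% interval 0.33 to 2.15; limma adjusted p = 0.0526), with 294 ± 118 scaled reads in S80A and 116 ± 11.5 in WT cells (SD, n = 3). NFKBIZ differed by -1.24 ± 0.42 log2 (SE; 95% interval -2.28 to -0.19; limma adjusted p = 0.0748), with 128 ± 43.2 scaled reads in S80A and 315 ± 158 in WT cells (SD, n = 3).

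The calls of these 2 genes depended on the fit. With edgeR on whole reads recovered from the scaled values, adjusted p-values at 0 hr were 0.0119 for BCL3 and 0.0263 for NFKBIZ, and ranges over 16 alternatives were 0.000665 to 0.147 and 0.00443 to 0.197. Without S80A replicate 1, BCL3 differed by 1.64 log2 at 0 hr (limma adjusted p = 0.00284, within the same range). Groups did not overlap at 0 hr for 3 of 6 members, NFKBIE and BCL3 with S80A higher and NFKBIZ with S80A lower, against 49.1% of all listed genes (31.6% with S80A higher and 17.5% lower). NFKBIA (0.49 log2, 95% interval -0.23 to 1.21), NFKBIB (0.056, -0.33 to 0.44) and NFKBID (0.16, -0.31 to 0.62) had limma adjusted p-values of 0.245 to 0.803 at 0 hr. Intervals this wide leave room for differences of about the size called for NFKBIE in NFKBIA, and do not show equal levels.

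After 3 hr with LPS none of the 6 members passed the test between genotypes, while 47.0% of all listed genes did. Genes listed for 1 genotype were selected partly for differing between genotypes, whereas all 6 members were listed for both. The shares of all listed genes here and at 0 hr may therefore be high as a comparison for the members. The count of members passing at 3 hr was 0 by limma, by edgeR and by DESeq2, and no member had an unadjusted limma p under 0.05 (0 of 6). Differences ranged from -0.11 log2 for NFKBIB (95% interval -0.53 to 0.31) to 0.44 log2 for NFKBIZ (-0.24 to 1.13), and limma adjusted p-values from 0.217 to 0.639. NFKBIA averaged 38248 ± 9337 scaled reads in S80A cells and 28981 ± 667 in WT cells (SD, n = 3), a difference of 0.37 log2 with an interval of -0.17 to 0.92. BCL3 was at 4467 ± 727 and NFKBIE at 4908 ± 919.5 in S80A cells, against 3709.7 ± 103 and 3889 ± 520.1 in WT cells. The groups did not overlap for NFKBIA (S80A higher) and NFKBIB (S80A lower), 2 of 6 members, against 59.0% of all listed genes (35.7% with S80A higher and 23.3% lower).

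**Figure D2:**
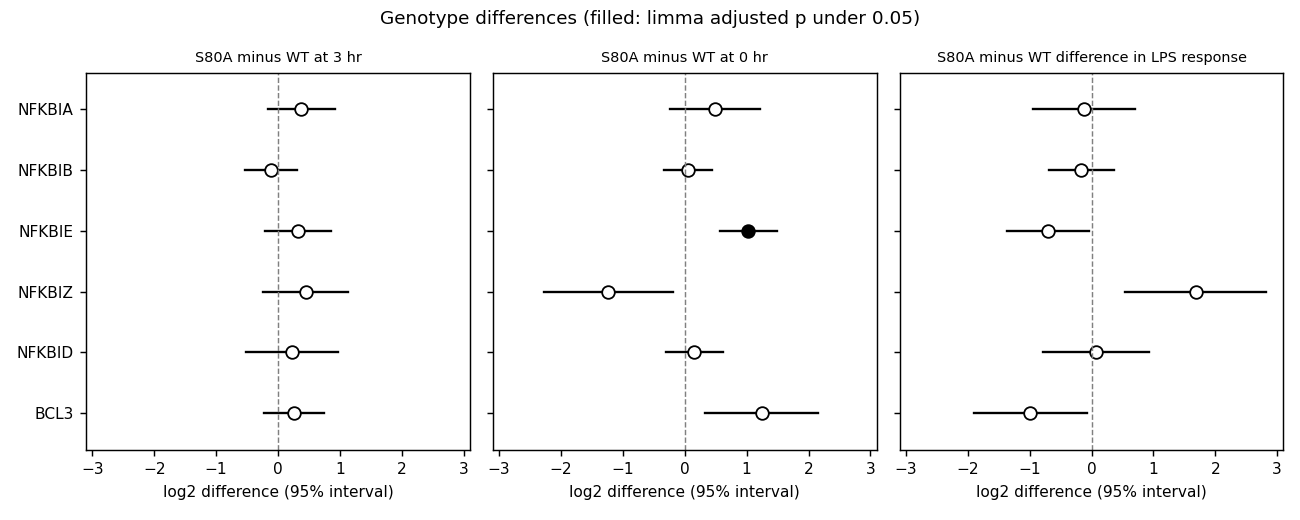
Log2 differences between S80A and WT cells at 3 hr, at 0 hr and in the LPS response for the 6 IκB genes (points, limma estimates; lines, 95% intervals; filled where the adjusted p was under 0.05). At 3 hr all intervals include 0, at 0 hr NFKBIE stands at 1.03, and in the response NFKBIZ stands at 1.68 and BCL3 at -0.99, both unfilled.

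The median S80A minus WT difference over all listed genes was 0.19 log2 at both times. It moved to -0.0076 at 3 hr and 0.013 at 0 hr with TMM factors computed on the listed genes, and to -0.24 and -0.11 with scaling by each library's total over the listed genes (library totals). With the authors' size factors 959 genes were called higher and 582 lower in S80A cells at 3 hr, and 660 and 347 at 0 hr. With TMM factors the calls were 798 higher and 743 lower at 3 hr and 492 and 457 at 0 hr, and with library totals 604 and 999, and 395 and 624. NFKBIE at 0 hr passed under each of these scalings, with 0.84 log2 (adjusted p = 0.0277) and 0.67 log2 (adjusted p = 0.0443). At 3 hr 5 of 6 members had positive differences with the authors' factors, but 1, NFKBIZ at 0.0054 log2, with library totals.

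The difference between genotypes in the LPS response, which sets the change in S80A cells against that in WT cells, passed the test for 0 of 6 members by limma without a replicate block, against 14.1% of the 3281 listed genes. All 6 members were listed in both genotypes, as were 1562 genes. Among those genes alone the same test called 70 genes and 0 members. At an unadjusted limma p under 0.05 over the 3281 genes there were 3 members, NFKBIZ, BCL3 and NFKBIE. edgeR called 1 member and 412 of the 3281 genes, and DESeq2 called 2 members and 646 genes. With same-numbered libraries paired within each genotype, a fit added after the data were seen, limma called 1 member, NFKBIZ (adjusted p = 0.0279), and 657 genes in place of 464. NFKBIZ came nearest, with a response larger in S80A cells by 1.68 ± 0.52 log2 (SE; 95% interval 0.54 to 2.82; limma adjusted p = 0.0526). The responses of NFKBIZ within replicate numbers 1 to 3 were 6.37, 6.46 and 6.04 log2 in S80A cells and 5.22, 4.80 and 3.82 log2 in WT cells. All 3 S80A values lay above all WT values, and such responses did not overlap between genotypes for 44.4% of all listed genes. Adjusted p-values of this difference ran from 0.00729 to 0.12 over 24 alternatives and passed 0.05 in 9 of them, among them the replicate block across genotypes (0.0471), edgeR (0.0334), DESeq2 (0.00729) and the fit without S80A replicate 1 at 0 hr (0.0307).

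BCL3 and NFKBIE had estimates of the opposite sign. The BCL3 response differed by -0.99 ± 0.42 log2 (SE; 95% interval -1.90 to -0.067; limma adjusted p = 0.13), with responses of 4.80, 3.84 and 3.38 log2 in S80A cells and 5.02, 5.08 and 4.88 in WT cells. S80A replicate 1 was close to the WT values and the others were lower. Without S80A replicate 1 at 0 hr the difference of BCL3 was -1.38 log2 (adjusted p = 0.00783, range 0.00603 to 0.261 over 24 alternatives). NFKBIE differed by -0.70 ± 0.30 log2 (SE; 95% interval -1.36 to -0.037; limma adjusted p = 0.135), with responses of 1.82, 1.02 and 1.09 log2 in S80A cells and 1.92, 2.02 and 2.09 in WT cells. Leaving out both S80A replicate 1 libraries, an alternative added after the data were seen, gave 3 members past the threshold, NFKBIZ (1.64 log2, adjusted p = 0.0334, range 0.00729 to 0.12), BCL3 (-1.38 log2, 0.00603, range 0.00603 to 0.261) and NFKBIE (-0.95 log2, 0.0376, range 0.0376 to 0.255). The same fit called 378 listed genes higher and 427 lower, against 236 and 228 with all libraries. S80A replicate 1 lay nearer the WT libraries on the second principal component, so leaving it out can widen genotype differences. These calls are therefore a description. Responses within replicate numbers did not overlap between genotypes for NFKBIZ, BCL3 and NFKBIE, 3 of 6 members, against 44.4% of all listed genes. For NFKBIA (-0.11 log2), NFKBIB (-0.16 log2) and NFKBID (0.072 log2) the intervals of the difference were -0.94 to 0.71, -0.69 to 0.36 and -0.78 to 0.92, with limma adjusted p-values of 0.662 to 0.907.

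The balance between the members shifted towards NFKBIA with LPS in every library. Levels were compared between genes as scaled reads per kb of exon (union of exons in GENCODE 29, 2.324 to 5.902 kb). At 3 hr NFKBIA stood first with 16118 ± 3935 per kb in S80A cells and 12213 ± 281 in WT cells (SD, n = 3), followed by NFKBIE, NFKBIZ and BCL3, whose neighbouring ranges overlapped, then NFKBIB and NFKBID, which were apart from their neighbours. That order was the same in both genotypes. At 0 hr NFKBIE (761 ± 95.9 per kb) and NFKBIA (561 ± 192) led in S80A cells with overlapping ranges, and NFKBIA (389 ± 71.4) and NFKBIE (375 ± 69.5) led in WT cells, also with overlap. NFKBIB was the third in both genotypes at 0 hr. NFKBIZ was last in S80A cells at 0 hr (21.7 ± 7.32 per kb), below the range of every other member, and at 53.4 ± 26.7 in WT cells, where its range overlapped that of NFKBID.

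NFKBIA made up 73.8% ± 0.984 of the summed reads per kb of the 6 members at 3 hr in S80A cells and 72.9% ± 1.77 in WT cells (SD, n = 3), and 34.0% ± 5.71 at 0 hr in S80A cells and 37.6% ± 4.17 in WT cells. NFKBIE held 8.80% ± 0.880 at 3 hr in S80A cells and 9.00% ± 1.18 in WT cells, and 47.3% ± 3.20 at 0 hr in S80A cells and 36.6% ± 7.27 in WT cells. NFKBIZ held 1.42% ± 0.746 at 0 hr in S80A cells and 5.07% ± 2.09 in WT cells. The 3 atypical genes together held 14.5% to 16.0% at 3 hr in S80A libraries and 14.5% to 15.9% in WT libraries, and 8.70% to 11.0% at 0 hr in S80A libraries and 10.7% to 14.3% in WT libraries. Without the division by length NFKBIZ, the longest transcript model, would hold 16.8% at 3 hr in S80A cells and 15.8% in WT cells, above NFKBIE at 8.33% and 8.55%, and 3.23% at 0 hr in S80A cells and 11.1% in WT cells. These shares are descriptions with no test, and each share falls when another member rises.

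**Figure D3:**
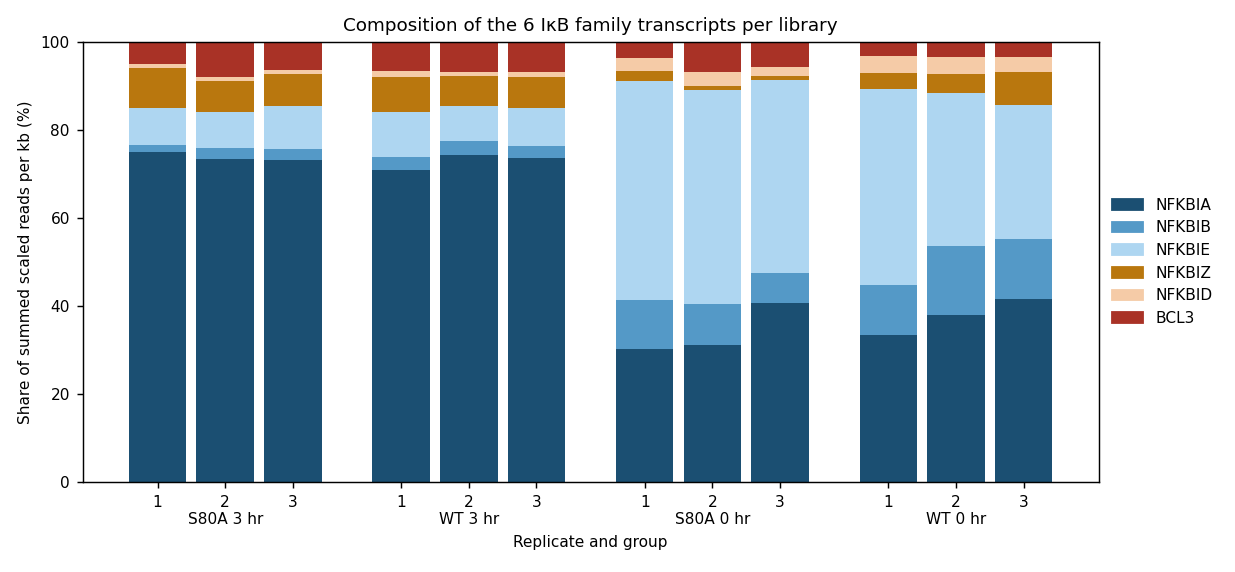
Share of each of the 6 IκB genes in their summed scaled reads per kb of exon (%), in each library, by group and replicate. NFKBIA fills 71.0% to 74.9% of every 3 hr bar and 30.3% to 41.7% of every 0 hr bar, where NFKBIE takes 30.4% to 49.7%.

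By their profiles over the 12 libraries, the members had different nearest genes. Likeness was measured as the root mean square distance between log2 profiles, each centred on its own mean. This distance includes the size of the LPS change, so genes that rose by a like amount lie close. Nearest to NFKBIA among genes other than the members were NFKB1 (0.26 log2), the ubiquitin ligase gene RNF19B (0.27) and the endocytic recycling gene EHD1 (0.30). BCL3 lay nearest to MSC, a basic helix-loop-helix factor gene (0.28), the interferon response factor gene IRF1 (0.34) and CSRNP1 (0.36). For NFKBIZ the nearest were TNFAIP2 (0.40), SGPP2, which encodes a sphingosine phosphate phosphatase (0.46), and LOC102723726 (0.46). NFKBIB lay nearest to the ubiquitin-conjugating enzyme gene UBE2Z (0.17), the proton exchanger gene SLC9A8 (0.18) and MLLT6 (0.19). NFKBIE lay nearest to PSD3 (0.24), the cyclin-dependent kinase gene CDK6 (0.27) and TCEB3, an elongin subunit gene (0.27), and NFKBID to the intermediate filament gene VIM (0.25), TP53INP2 (0.28) and BTG3 (0.29). Among the members NFKBIB and NFKBID were closest (0.40), then NFKBIA and BCL3 (0.42), and NFKBIE and NFKBIZ farthest apart (2.10).

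Other genes of the pathway were followed by lists. Of the 5 Rel subunit genes, the binding partners of the IκB proteins, 5 rose in both genotypes by the authors' tables, and 1, NFKB2, passed between genotypes at 3 hr but not at 0 hr (0.66 log2, limma adjusted p = 0.118), with 9007 ± 1562 scaled reads in S80A and 13954 ± 1053.5 in WT cells at 3 hr (SD, n = 3; -0.64 log2, limma adjusted p = 0.0421, range 0.00448 to 0.131 over 16 alternatives). That call was lost without any of the WT replicates or without S80A replicate 2 or 3 at 3 hr (adjusted p from 0.0644 to 0.131). Among the rest RELB, REL and RELA had authors' log2 fold changes of 3.46, 3.72 and 1.67 in S80A cells and 4.23, 3.80 and 1.45 in WT cells. Of 11 IκB kinase complex members and upstream kinases, 5 were listed. By the authors' calls 4 rose and 1, TAB1, fell in S80A cells, and 3 rose and TAB1 fell in WT cells. The kinase gene MAP3K8, whose protein is held by p105, was at 3156 ± 1149 in S80A and 5865 ± 378 in WT cells at 3 hr (-0.95 log2, limma adjusted p = 0.0298), a call lost without any of the WT replicates or S80A replicate 2 or 3 at 3 hr (0.0777 to 0.0983, range 0.00217 to 0.0983 over 16 alternatives). TAB2, a scaffold of the TAK1 kinase, was higher in S80A cells at 3 hr by 1.00 log2 (limma adjusted p = 0.00656), a call lost with library totals (0.053, range 1.40e-06 to 0.053 over 16 alternatives). MAP3K14, the kinase of the alternative NF-κB route, was higher in S80A cells at 3 hr by 1.25 log2 (limma adjusted p = 0.0225). Its call was lost without WT replicate 2 or 3 or S80A replicate 3 at 3 hr and with library totals (0.0501 to 0.0859, range 0.00115 to 0.0859). IKBKE, an IκB kinase relative, was higher in S80A cells at 0 hr by 0.88 log2 (limma adjusted p = 0.0413), a call lost without any WT replicate or S80A replicate 2 or 3 at 0 hr and under both other scalings (0.0628 to 0.117, range 0.00153 to 0.117 over 16 alternatives).

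Of 15 genes for IκB degradation and turnover 2 were listed. CYLD, a deubiquitinase that restrains IκB kinase signalling, rose in both genotypes, by 2.34 log2 in S80A and 2.12 log2 in WT cells in the authors' deposited tables. UBE2D3, a ubiquitin-conjugating enzyme of the IκB ligase, rose in S80A cells by the authors' table. It was not listed for WT cells, where it had 2233 to 2511 scaled reads at 0 hr and 3551 to 4354 at 3 hr. Its LPS response did not pass between genotypes (0.57 log2, limma adjusted p = 0.285). At 3 hr UBE2D3 was higher in S80A cells by 1.04 log2 (limma adjusted p = 0.0112), a call lost with library totals (0.0609, range 7.78e-05 to 0.0609 over 16 alternatives). Of 3 other genes named for IκB or its kinase or for ankyrin repeats, IKBIP was listed and fell in WT cells, with an authors' log2 fold change of -1.10.

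In mouse macrophages IκBζ is needed for the induction of a group of secondary genes, and of 6 such genes 5 were listed here. IL6, IL12B, CSF2, EBI3 and EDN1 rose in S80A cells by the authors' table, and the first 4 were listed as rising in WT cells. EDN1 was not listed for WT cells, but its 0 hr values there, 3.46, 5.63 and 6.45 scaled reads, lay below its 3 hr values. The 5 did not move one way between genotypes at 3 hr, where 2 were lower, 2 were higher and EBI3 did not pass. IL6, a pyrogenic cytokine, had 333, 285 and 197 scaled reads in S80A libraries and 1525, 1733 and 1356 in WT libraries (-2.52 log2, limma adjusted p = 0.00107). IL12B, a subunit of IL-12 and IL-23, had 314, 28.8 and 37.2 in S80A libraries and 906, 617 and 537 in WT libraries (-3.24 log2, limma adjusted p = 0.021), with the call lost without any of the WT replicates or S80A replicate 2 or 3 (0.0528 to 0.067, range 0.000354 to 0.067 over 16 alternatives). The IL12B difference at 3 hr was -4.31 log2 without S80A replicate 1 and -2.61 log2 without S80A replicate 2, and edgeR gave -2.43 log2. CSF2, the gene of GM-CSF, had 122, 430.2 and 552 in S80A libraries and 37.6, 6.23 and 4.28 in WT libraries (4.76 log2, limma adjusted p = 0.00523). EDN1, which encodes endothelin, had 54.9, 187 and 242 in S80A libraries and 12.9, 18.7 and 18.2 in WT libraries (2.98 log2, limma adjusted p = 0.00523). EBI3 had 9134, 13766 and 14917 in S80A libraries and 6155, 7702 and 8397 in WT libraries (0.75 log2, limma adjusted p = 0.053). The test thus called 4 of the 5 genes at 3 hr, against 47.0% of all listed genes. For all 5 the groups did not overlap, against 59.0% of all listed genes. S80A replicate 1 was the nearest S80A library to the WT values in each. NFKBIZ itself did not pass the test between genotypes at 3 hr, and the relation of these genes to it was not tested.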

How the data were processed

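THP-1 RNA was sequenced from 4 groups of 3 libraries (single-end, 75 bases, a target of 20 M reads, per the labels' protocols). Per the submitters' processing notes, the authors used FastQC, HISAT, StringTie, Cuffdiff, HTSeq and DESeq2 with the build GRCh38; for versions, order, annotation and strand setting, the sources used here give nothing. The authors deposited a table per genotype with each gene's log2 fold change (3 hr over 0 hr), raw and adjusted p-values and, for every library, a signal. The deposited signal is a read count divided by a size factor per library: 100% of values were whole multiples of what 1 read is worth in that library, to within 0.01 reads, which gave whole reads. The tables hold 2508 (S80A) and 2335 (WT) genes with adjusted p under 0.01 and absolute log2 fold change over 1, 1562 of them in both, so only LPS-responding genes were covered, and a member that had not responded would be missing.

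Genotype differences were tested with limma on log2(scaled reads + 1), at each time on 6 libraries and for the LPS response (interaction) on 12, with Benjamini-Hochberg adjustment over 3281 genes and a threshold of 0.05. Genes with few reads have their fold changes understated by the pseudocount. LPS responses are the authors' calls. Genes listed in 1 table were selected partly for differing between genotypes, so counts over all genes may be high. The genes, lists and tests were chosen with earlier results of these data known. The text names the 6 members, NFKB1, the 3 nearest profiles per member and, from each list, up to 4 genes with the largest responses and those passing a test. Replicate numbers are shared by all groups. Deviations from group means of libraries with the same number correlated, across genes, at 0.188, 0.245 and 0.259 between genotypes at 0 hr, 0.196 to 0.299 within S80A cells and 0.153 to 0.343 within WT cells, so the numbers were taken to pair those groups, but at 0.064, 0.153 and 0.196 at 3 hr, so not there. No replicate pair agreed within sampling noise (chi-square per gene of 8.79 or more). Scripts were tested on simulated counts. R 4.3.3, limma 3.58.1, edgeR 4.0.16, DESeq2 1.42.0 and Python 3.11.15 were used. Gene positions come from GENCODE 29, and promoter windows from RefSeq.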

Additional observations from a re-analysis of the deposited data

Results flagged for a closer look

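By limma without a replicate block, 7 of 22 listed genes from the pathway and marker lists passed the test of a different LPS response between genotypes. The share of all 3281 genes was 14.1%, and 0 of 6 IκB genes passed (1 by edgeR and 2 by DESeq2). With the replicate block 1 IκB gene passed, NFKBIZ (limma adjusted p = 0.0471), among 620 genes called. NFKBIZ also passed with libraries paired within each genotype. The lists were chosen with earlier results of these data known, so these counts are a description. The responses were smaller in S80A cells for NFKB2 by -1.30 ± 0.35 log2 (SE, limma adjusted p = 0.0313, range 0.00182 to 0.077 over 24 alternatives), MAP3K8 by -1.48 ± 0.34 log2 (0.0181, range 0.00145 to 0.0477), IL6 by -2.24 ± 0.38 log2 (0.00481, range 0.000336 to 0.742) and IL12B by -3.24 ± 0.96 log2 (0.0462, range 4.66e-05 to 1.00). They were higher in S80A cells for MERTK, which fell with LPS in both genotypes, by 1.41 ± 0.29 log2 (0.0107, range 8.41e-05 to 0.0342), CSF2 by 4.76 ± 0.97 log2 (0.0106, range 0.00207 to 1.00) and EDN1 by 2.78 ± 0.79 log2 (0.0405, range 0.00538 to 0.0919, over 22 alternatives). With edgeR and DESeq2 the responses of IL6, IL12B and CSF2 did not pass, at -0.80 and -1.72 log2 for IL6, -2.43 and -2.61 log2 for IL12B and 4.54 and 4.35 log2 for CSF2. CSF2 and IL12B had 0 reads in all 6 libraries at 0 hr and IL6 had 1 read among them, so their responses rest on the 3 hr values. Without S80A replicate 1 at 3 hr the IL12B response differed by -4.31 log2. The NFKB2 call was lost without 8 of the 12 libraries in turn, those of IL12B and EDN1 without 11 and 10. The NFKB2 call was also lost with libraries paired within each genotype (0.0513) and among the genes listed in both genotypes alone. It was lost in 10 of its 24 alternatives and kept in 14.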

How the results depend on the processing

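Alternatives were 2 other pseudocounts (10 and 0.5), a filter at a mean of 50 scaled reads, edgeR, DESeq2, 2 other scalings, a variance trend, the replicate block, the genes or libraries in the fit and each library left out. Of 96 recomputed differences of the members at 3 hr, 91 kept their direction and side of the threshold and 5 changed sign, with no member called under any of them. At 0 hr 77 of 96 kept both, 3 lost a call, 10 gained one and 6 changed sign, and for the LPS response 124 of 144 kept both, 13 gained a call and 7 changed sign. The number of members called at 0 hr, 1 of 6, became 2 with pseudocount 10, the filter or library totals and 3 with edgeR, DESeq2 or all 12 libraries in the fit, and ranged from 0 to 2 with a library left out. For the response, 0 of 6 became 1 with pseudocount 10, the filter, edgeR or the variance trend, 2 with DESeq2, 0 to 2 with a library left out and 3 without both S80A replicate 1 libraries. Over all genes the response calls were 464, and 70 among the 1562 genes in both tables. They were 259 to 663 with a library left out and 805 without both S80A replicate 1 libraries. Calls at 0 hr, 1007, ranged from 497 to 1200 with a library left out. Why these counts changed was not tested beyond the fewer genes or libraries used. With the replicate number as a block, which pairs the groups at 0 hr, no member's call changed at 0 hr (NFKBIE adjusted p = 0.0478) or in the authors' 6 LPS calls per genotype, and the NFKB2 difference at 3 hr lost its call (0.0764). For the response the block raised the members called to 1 (NFKBIZ, 0.0471) and the genes to 620. Pairing within each genotype also gave 1 member (NFKBIZ, 0.0279), with 657 genes.

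The sign changed only for differences that were not called. With library totals it changed for NFKBID in the response (-0.012 log2), for NFKBIA (-0.066), NFKBIE (-0.11), NFKBID (-0.21) and BCL3 (-0.18) at 3 hr and for NFKBIB (-0.30) and NFKBID (-0.20) at 0 hr. TMM factors changed it for NFKBIB (-0.13) and NFKBID (-0.032) at 0 hr. Leaving out libraries moved NFKBIA between -0.52 and 0.14 log2 and NFKBID between -0.27 and 0.25 in the response, NFKBID between -0.064 and 0.41 at 3 hr, and NFKBIB between -0.073 and 0.13 and NFKBID between -0.020 and 0.28 at 0 hr. The sign of NFKBID in the response turned without WT replicate 2 at 3 hr (-0.053), S80A replicate 3 at 0 hr (-0.054), S80A replicate 1 at 3 hr (-0.22) or both S80A replicate 1 libraries, and that of NFKBIA without S80A replicate 3 at 0 hr or at 3 hr (0.018). The cause was not tested.

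On recovered reads edgeR called 412 genes for the response, 1580 at 3 hr and 1107 at 0 hr, and DESeq2 called 646, 1689 and 1246. Without the division by length the NFKBIZ shares rise by construction, to 16.8% at 3 hr and 3.23% at 0 hr in S80A cells, and NFKBIA falls to 64.2% at 3 hr.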
